A study of Mus musculus with 4 samples.

Results

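Fas, caspases and the inhibitors that hold caspases back were examined in regulatory T cells (Tregs) of the mouse liver. The set holds 8 genes, taken by symbol from the deposited table of 24452 listed genes: the death receptor Fas, its adaptor Fadd, the initiator caspases Casp8 and Casp9, and the inhibitors Cflar, Xiap, Birc2 and Birc3, which the table writes in capitals as FAS, FADD, CASP8, CASP9, CFLAR, XIAP, BIRC2 and BIRC3. All 8 were listed and all 8 passed the filter on low values. The libraries came from Tregs of young mice and numbered 2 from Altre-KO and 2 from Altre-WT animals, the first with a knockout of the Treg long non-coding RNA Altre and the second without it. The labels give neither an age in weeks, a strain nor the way the knockout was made. They do not tell whether libraries of the same genotype are from different animals, and p-values then measure a spread that may be technical. The targeted transcript was not analysed here, and the genotype labels were taken as given.

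Fas is a surface receptor that, when bound by Fas ligand on another cell, recruits Fadd, which in turn recruits and activates caspase-8. Cflar encodes c-FLIP, a relative of caspase-8 without protease activity that takes its place at the receptor. Caspase-9 starts the other route, which runs through mitochondria and the apoptosome, and XIAP binds and blocks caspase-9 and the executioner caspases. Birc2 and Birc3 encode cIAP1 and cIAP2, ubiquitin ligases that steer TNF receptor signalling towards survival and keep the non-canonical NF-kB pathway low. In T cells the balance of these genes sets how easily an activated cell is removed by Fas, and people and mice with defective Fas accumulate lymphocytes.

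Levels are given in CPM, the authors' read numbers scaled to a common total over the listed genes of a library. Reads on listed genes, estimated from the values, numbered between 1828772 and 3266131 per library, and 1 read was worth 0.306 to 0.547 CPM. Those reads were 32.8% and 21.5% of all reads in knockout replicates 1 and 2, against 18.8% and 20.6% in wild-type replicates 1 and 2, each with a 95% Wilson interval of at most 0.029 percentage points to either side, for counting error only. The 6 Treg markers summed to 2447 and 2607 CPM in knockout and to 2606 and 2589.8 CPM in wild type, and Cd4 lay between 527 and 547 CPM throughout. Foxp3 was at 79.5 and 162 CPM in knockout, against 160.4 and 140.5 CPM in wild type. Of 5 hepatocyte markers, Alb, Ttr and Fgb were listed at 0 in all 4 libraries, and the 5 together summed to at most 1.69 CPM. The 7 myeloid markers, all listed, summed to 245 and 136 CPM in knockout and to 151 and 254 CPM in wild type, with Clec4f, a Kupffer cell marker, at 0.55 CPM or less. The 5 CD8 T and NK cell markers summed to 14.3 to 23.0 CPM and the 4 B cell markers to 27.1 to 38.3 CPM. The 4 markers of liver endothelium summed to 1.54 and 3.39 CPM in knockout and to 8.75 and 8.40 CPM in wild type. Stab2 carried most of that endothelial gap, on 3 to 12 estimated reads per library. The 3 stellate cell markers summed to at most 7.11 CPM in any library.

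Both genotypes carried all 8 transcripts, and none of the 8 differed between knockout and wild type beyond the limma test's threshold. Genotypes were compared with limma on log2(CPM + 1), 2-sided, with Benjamini-Hochberg adjustment across the whole set of 10486 tested genes and 0.05 as the threshold. At that threshold 0 of 8 members and 0.0381% of all tested genes were called, and at an unadjusted p under 0.05 again 0 of 8 members, against 3.66% of all tested genes. With limma-voom on estimated reads the number of members called was likewise 0. The adjusted p of each member was 0.999. In the authors' deposited table each of the 8 had an adjusted p of 1.

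Fas, the receptor at the head of the route, was at 44.1 and 39.4 CPM in the knockout libraries, against 52.0 and 48.3 CPM in the wild-type libraries. Both knockout values lay below both wild-type values. The means were 41.7 ± 3.34 CPM in knockout and 50.1 ± 2.55 CPM in wild type (SD, n = 2 each), a ratio of 0.832, and the log2 fold change was -0.26 (SE 0.24, limma adjusted p = 0.999). Its 95% interval, -0.75 to 0.23, runs from 0.593 to 1.17 times the wild-type level. Fas rested on 93 to 144 estimated reads per library, which gives an exact Poisson interval of 31.8 to 48.2 CPM in knockout replicate 2 and of 42.0 to 63.5 CPM in wild-type replicate 1, and those intervals cover counting error only. As these are bulk libraries, fewer cells with a transcript and less of it per cell cannot be told apart.

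Fadd, the adaptor that joins Fas to caspase-8, was at 20.5 and 27.1 CPM in knockout and at 30.1 and 19.3 CPM in wild type. The values of the genotypes overlapped, and the lowest and the highest were both wild type. Its log2 fold change was -0.03 with a 95% interval of -0.70 to 0.64, one of the widest among the 8. In linear terms the interval runs from 0.614 to 1.56 times the wild-type level. Without knockout replicate 1 the log2 fold change was 0.16, and without wild-type replicate 1 it was 0.27.

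Casp8, the initiator caspase that Fadd recruits, was at 248 and 259.5 CPM in knockout and at 262 and 251 CPM in wild type. The 4 libraries spanned 5.46% of their mean, and the genotypes overlapped. The log2 fold change was -0.02 (SE 0.15, 95% interval -0.33 to 0.30), so the interval reaches from 0.796 to 1.23 times the wild-type level. Cflar, the inhibitor that competes with caspase-8 at the receptor, was at 265 and 227 CPM in knockout and at 264 and 250.1 CPM in wild type. Its genotypes overlapped as well, with a log2 fold change of -0.07 (SE 0.16, 95% interval -0.39 to 0.26). The lowest Cflar value was that of knockout replicate 2.

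Casp9, the initiator caspase of the mitochondrial route, had the lowest ratio of the 8, at 23.6 and 13.6 CPM in knockout, against 27.9 and 27.3 CPM in wild type. Both knockout values were below both wild-type values, but the knockout libraries stood further apart from each other than knockout replicate 1 stood from wild type. The means were 18.6 ± 7.09 CPM in knockout and 27.6 ± 0.403 CPM in wild type (SD, n = 2 each), a ratio of 0.673. The log2 fold change was -0.60 (SE 0.33, 95% interval -1.29 to 0.09, limma adjusted p = 0.999, unadjusted p = 0.0875). Knockout replicate 2 held 32 estimated reads of Casp9, with an exact Poisson interval of 9.27 to 19.1 CPM, and knockout replicate 1 held 77, with 18.6 to 29.5 CPM. Without knockout replicate 2 the log2 fold change was -0.22, and without knockout replicate 1 it was -0.98.

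**Figure D1:**
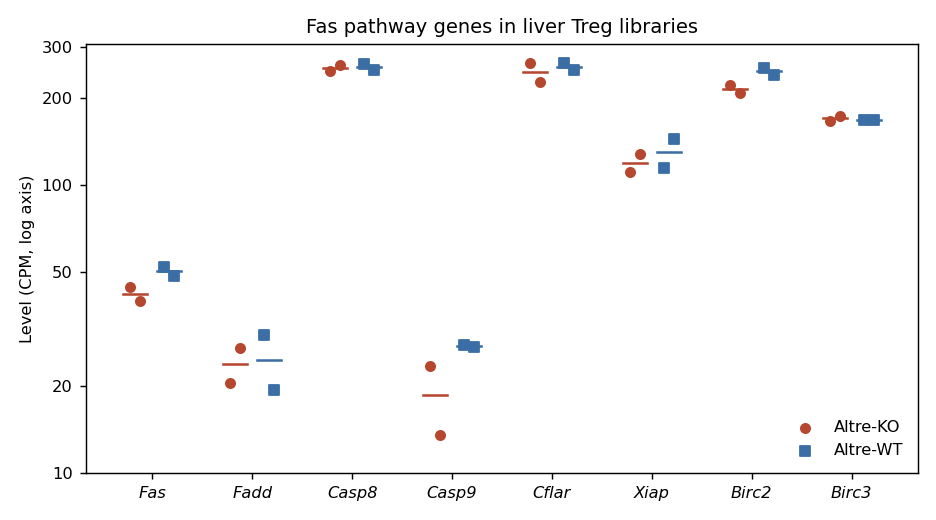
Level of each of the 8 genes in CPM on a log axis, with 2 Altre-KO libraries (circles, left) and 2 Altre-WT libraries (squares, right) and a bar at the mean of each genotype. The genotypes stand apart for Fas, Casp9 and Birc2 and overlap for the other 5, and on this log axis Casp9 has the widest gap between knockout libraries, 23.6 against 13.6 CPM.

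Xiap, which blocks caspase-9 and the executioner caspases directly, was at 111 and 127 CPM in knockout and at 114 and 145 CPM in wild type. The genotypes overlapped, with a log2 fold change of -0.11 (SE 0.18, 95% interval -0.49 to 0.27). The highest value was that of wild-type replicate 2, and without that library the log2 fold change was 0.06.

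Birc2 and Birc3 are neighbouring paralogs. Birc2 (cIAP1) was at 223 and 207 CPM in knockout, against 255 and 240.4 CPM in wild type, and both knockout values lay below both wild-type values. Its means were 215 ± 10.7 CPM in knockout and 248 ± 10.2 CPM in wild type (SD, n = 2 each), with a log2 fold change of -0.20 (SE 0.15, 95% interval -0.52 to 0.12, limma adjusted p = 0.999). Birc3 (cIAP2), which NF-kB is known to induce, was at 167 and 173 CPM in knockout and at 167.3 CPM in each wild-type library. The 4 Birc3 values spanned 3.91% of their mean, the narrowest span of the 8, and its log2 fold change was 0.02 (SE 0.16, 95% interval -0.31 to 0.36).

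The promoters of Birc2 and Birc3 are shown because these neighbours were the pair whose ratio did not overlap between genotypes. The sequences are RefSeq's for GRCm38.p6, from 250 bases before to 50 bases after the gene's start, 5′ to 3′ on the minus strand, at chr9:7837008-7837307 for the first of 2 listed starts of Birc2 and chr9:7873121-7873420 for Birc3. Capitals mark matches on either strand to a cAMP response element (TGACGTCA) or a GC box (GGGCGG).
Birc2: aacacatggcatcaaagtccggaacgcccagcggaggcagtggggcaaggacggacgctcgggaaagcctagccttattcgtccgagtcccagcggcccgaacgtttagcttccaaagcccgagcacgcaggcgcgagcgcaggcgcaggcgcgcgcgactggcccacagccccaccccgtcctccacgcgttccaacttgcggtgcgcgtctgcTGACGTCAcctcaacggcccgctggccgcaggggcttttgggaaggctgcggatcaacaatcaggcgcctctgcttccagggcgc
Birc3: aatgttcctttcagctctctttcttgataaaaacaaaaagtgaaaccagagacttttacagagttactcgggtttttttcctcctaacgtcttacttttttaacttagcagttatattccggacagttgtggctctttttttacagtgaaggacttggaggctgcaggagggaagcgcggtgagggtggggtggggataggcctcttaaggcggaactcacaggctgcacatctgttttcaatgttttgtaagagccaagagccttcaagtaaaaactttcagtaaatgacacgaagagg
The Birc2 window holds 1 TGACGTCA, and the Birc3 window has no match to either motif. TGACGTCA occurs in 1.79% of all 32851 windows of 300 bases and GGGCGG in 35.7%. G and C make up 67% of the Birc2 window and 43% of the Birc3 window, against a median of 52.7% over all windows. The window of the other start of Birc2 has 60% G and C and no TGACGTCA. All 8 members matched, with 11 windows in all. GGGCGG occurs in windows of Fas, Fadd, Casp9, Xiap and the other start of Birc2, and in none of Casp8, Cflar or Birc3. A match is a string of letters here, and binding was not measured.

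Set beside each other, 7 of the 8 log2 fold changes were below 0, against 52.1% of all tested genes, and the median was -0.09, against -0.01 over all tested genes. The genotypes did not overlap for 3 of the 8 (Fas, Casp9 and Birc2), all lower in knockout, against 16.1% of all tested genes in that direction and 14.7% in the other, where the members had none. In either direction, genotypes that do not overlap made up 30.8% of all tested genes, so 3 of 8 is a share near the background. The markers of liver endothelium also summed lower in both knockout libraries, 1.54 and 3.39 CPM against 8.75 and 8.40 CPM in wild type. Stab2 carried most of that gap, at 0.92 and 1.27 CPM in knockout against 6.02 and 5.04 CPM in wild type. It rested on 3 to 12 estimated reads per library. Kdr and Cdh5 overlapped between genotypes, and Clec4g had at most 2 reads. The part of endothelial cells in the values of Fas, Casp9 and Birc2 was not tested. Of the 8, 7 lay within 0.3 of 0 on the log2 scale, against 71.5% of all tested genes. Leaving out each library in turn kept Fas between -0.34 and -0.18, Birc2 between -0.25 and -0.15 and Casp9 between -0.98 and -0.22. As the genotypes of Fas, Birc2 and Casp9 did not overlap, leaving out a library could not turn their sign. For the other 5 it turned the sign. For Casp8 and Fadd it turned without knockout replicate 1 and without wild-type replicate 1, for Cflar and Birc3 without knockout replicate 2, and for Xiap without wild-type replicate 2.

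**Figure D2:**
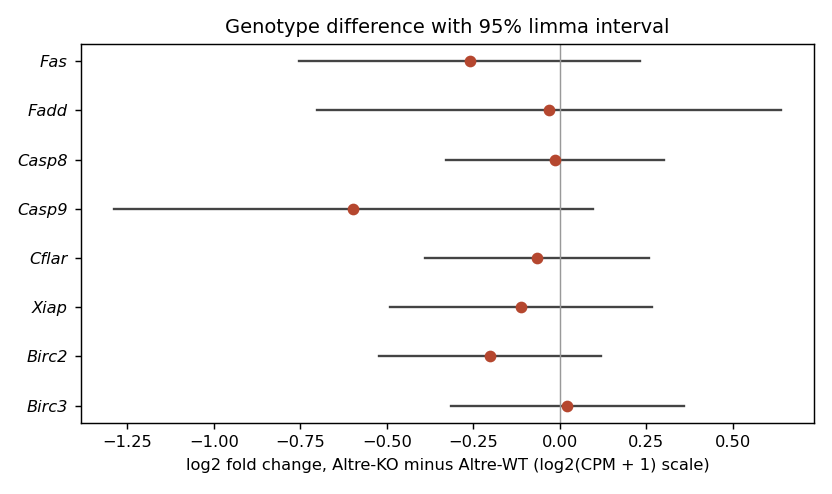
Log2 fold change of each gene, Altre-KO minus Altre-WT on the log2(CPM + 1) scale (points), with 95% limma intervals (lines). Every interval includes 0, and the widest are those of Casp9 (-1.29 to 0.09) and Fadd (-0.70 to 0.64), which have the fewest reads.

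Compared per length, as CPM per kb of merged exons, Casp8 was the highest of the 8. Casp9 had the lowest mean, with values that overlapped those of Fadd. Casp8 had 87.7 ± 2.82 CPM per kb in knockout and 88.6 ± 2.68 CPM per kb in wild type (SD, n = 2 each), and its mean over the 4 libraries lay above 96.5% of the 10121 tested genes with a length. Birc2 followed with 46.9 ± 2.34 CPM per kb in knockout and 54.1 ± 2.22 CPM per kb in wild type, and Birc3 with 33.9 ± 0.932 CPM per kb in knockout and 33.4 ± 0.00282 CPM per kb in wild type. These ranges over libraries did not overlap with those of their neighbours in the order.

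Fas, at 19.1 to 25.2 CPM per kb over the 4 libraries, and Cflar, at 17.9 to 20.95 CPM per kb, overlapped and could not be ranked. Their order turned when the longest transcript was used as the length, to a mean of 28.3 CPM per kb for Fas and 38.3 CPM per kb for Cflar, since the merged exons of Cflar (12669 bases) far exceed its longest transcript (6572 bases). Xiap came next with 11.7 to 15.3 CPM per kb. Fadd (4.96 to 7.70 CPM per kb) and Casp9 (2.61 to 5.37 CPM per kb) overlapped at the low end, where the mean of Casp9 lay above 28.3% of tested genes. The other members kept their places in the order under both lengths.

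**Figure D3:**
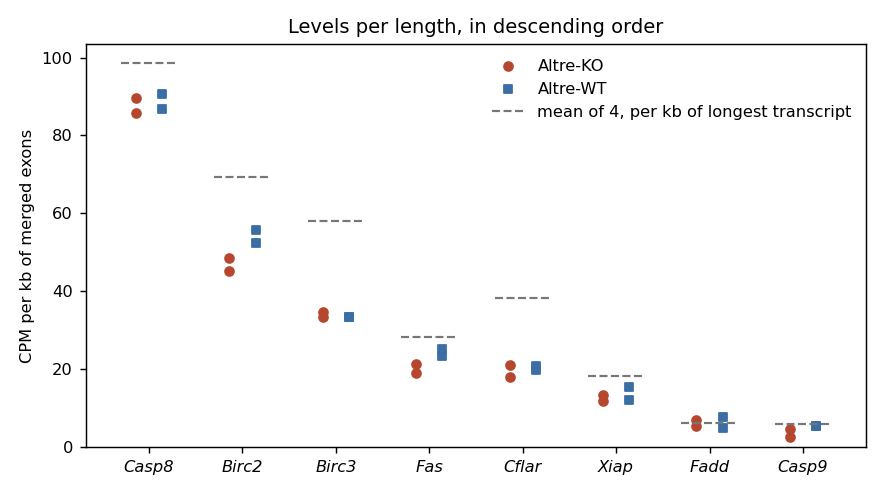
CPM per kb of merged exons for each gene in descending order, with Altre-KO libraries as circles on the left and Altre-WT libraries as squares on the right, and the mean over 4 libraries per kb of the longest transcript as a dashed line. Casp8 stands highest at 85.7 to 90.5 CPM per kb, and Fas and Cflar swap places under the dashed lines.

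Ratios taken within a library do not depend on how that library was scaled. Cflar over Casp8 was 1.07 and 0.874 in knockout, and 1.01 and 0.997 in wild type, so reads of the inhibitor and of the caspase were nearly equal in number in both wild-type libraries and lay to either side of that in knockout. Birc3 over Birc2 was 0.748 and 0.835 in knockout, and 0.657 and 0.696 in wild type. Both knockout ratios were above both wild-type ratios, by 0.23 on the log2 scale on average (exact permutation test, 2-sided, p = 0.333, n = 2 each), and 0.333 is the smallest p that 2 libraries against 2 allow.

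Xiap over Casp9 was 4.70 and 9.41 in knockout, and 4.10 and 5.29 in wild type, which overlapped (exact permutation test, 2-sided, p = 0.667). Fadd over Fas was 0.465 and 0.688 in knockout, and 0.579 and 0.400 in wild type, which also overlapped (exact permutation test, p = 0.667), as did Cflar over Casp8 (exact permutation test, p = 1). These 4 ratios were the ones tested, and with this smallest p none could pass after adjustment. Summed over genes without regard to their length, the 4 inhibitors had 2.28 and 2.16 times the CPM of Fas, Fadd, Casp8 and Casp9 in knockout, and 2.15 and 2.32 times in wild type, with overlap.

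**Figure D4:**
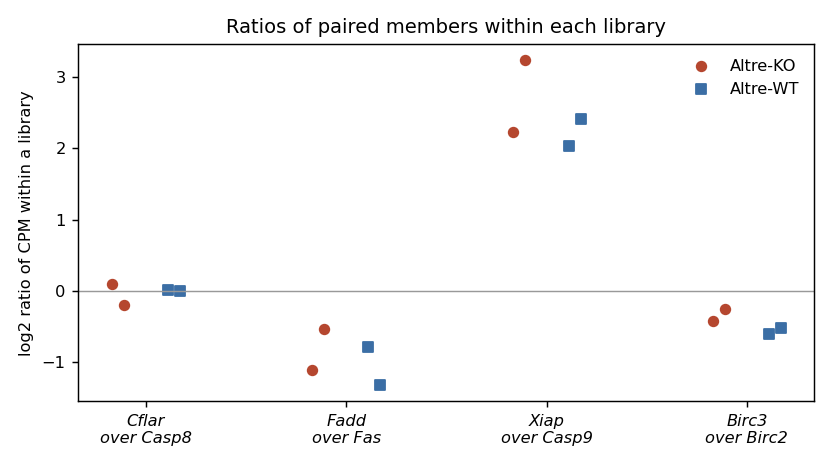
Log2 ratio of CPM between paired genes within each library, with Altre-KO as circles on the left and Altre-WT as squares on the right. The genotypes stand apart for Birc3 over Birc2 and overlap for the other ratios, and the highest Xiap over Casp9 ratio (9.41, log2 3.23) is that of knockout replicate 2.

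Positions are those of GRCm38 in the GENCODE M21 annotation. Cflar (58711508 to 58758884) and Casp8 (58795374 to 58847503) lie 36489 bases apart on the plus strand of chromosome 1. Birc2 (7818227 to 7837064) and Birc3 (7848699 to 7873186) lie 11634 bases apart on the minus strand of chromosome 9. Fas (34290666 to 34327772) is on chromosome 19, Fadd (144577318 to 144582463) on chromosome 7, Casp9 (141793612 to 141815976) on chromosome 4 and Xiap (42059679 to 42109656) on chromosome X. The longest coding transcript of Birc2 aligned to a Birc3 transcript at 77.3% identity over 1357 bases. That of Birc3 aligned to a Birc2 transcript at 87.7% over 243 bases. All 32 read estimates of the 8 members came out whole within 0.02 of a read.

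Stretches of near-identity existed for some members. Cflar matches the processed pseudogene Gm9845 over 598 bases without a mismatch (100% identity), Birc3 matches the pseudogene Gm7019 over 172 bases (99.4%) and Casp8 matches the pseudogene Gm20257 over 130 bases (99.2%). How reads in these stretches were counted is not given, which leaves part of these levels uncertain, and Gm20257 itself was at 11.0 and 7.62 CPM in knockout and at 10.4 and 7.99 CPM in wild type. Fadd shares exon bases with an antisense gene, Faddos, and the strand setting of the counting is not given in the sources used here, so reads of the pair cannot be told apart. Casp9 shares 94 exon bases with Cela2a and Ctrc on the opposite strand, both listed at 0 in all 4 libraries.

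Across the rest of the pathway, 6 lists with 65 genes were read in the same fit, of which 64 were listed and 56 tested. None of the 56 passed in either direction (limma adjusted p), against 0.0381% of all tested genes, and 1 had an unadjusted p under 0.05, against 3.66%. Limma-voom on estimated reads also called 0 of them. Log2 fold changes were above 0 for 26 and below 0 for 30, with a median of -0.02, against -0.01 over all tested genes.

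Ligands, other death receptors and their adaptors had 21 of 23 members tested, 10 above and 11 below 0, with a median log2 fold change of -0.003, which was 0.03 without knockout replicate 2. Tnfrsf25, a death receptor that Tregs carry, had 104 and 103 CPM in knockout, against 60.2 and 69.4 CPM in wild type, with no overlap (log2 fold change 0.67, SE 0.20, limma adjusted p = 0.999, unadjusted p = 0.00223). Tnfrsf1a, the main TNF receptor, was at 17.5 and 13.1 CPM in knockout, against 21.3 and 23.5 CPM in wild type (log2 fold change -0.54, and -0.34 without knockout replicate 2). Ripk1, the kinase shared by TNF receptor survival and death signalling, was at 121 and 107 CPM in knockout, against 89.7 and 98.4 CPM in wild type (log2 fold change 0.27); leaving out knockout replicate 1 gave 0.18. Fasl, the ligand of Fas, was at 15.3 and 11.0 CPM in knockout and at 16.4 and 8.41 CPM in wild type, which overlapped; it and the other genes named outside the 3 smallest p-values of a list were chosen for their role after their values were seen.

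Other caspases had 6 of 8 members tested, 2 above and 4 below 0, with a median of -0.22. That median was -0.39 without knockout replicate 1 and -0.03 without knockout replicate 2. Casp12 and Casp14 were listed at 0 in all 4 libraries. Casp4, an inflammatory caspase that senses bacterial lipopolysaccharide, was at 60.6 and 44.5 CPM in knockout and at 58.5 and 68.9 CPM in wild type (log2 fold change -0.29, and -0.07 without knockout replicate 2). In the order of libraries the Casp4 values followed the sums of the myeloid markers, at 245 and 136 CPM in knockout and 151 and 254 CPM in wild type. Lyz2 made up the largest part of those sums, at 165 and 66.05 CPM in knockout and 102 and 155 CPM in wild type. Lyz2 itself did not follow that order, being highest in knockout replicate 1, and Csf1r, Adgre1 and Itgam were each lowest in wild-type replicate 1. Other list genes stood in the order of the sums too, and the share of all tested genes that do was not counted. The part of myeloid cells in the Casp4 values was not tested.

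Apoptosome genes, IAP antagonists and other proteins of the IAP family had 12 of 15 members tested, 4 above and 8 below 0, with a median of -0.10, which was 0.11 without knockout replicate 1 and 0.05 without wild-type replicate 2. Apaf1, which forms the apoptosome with caspase-9, was at 86.7 and 108 CPM in knockout and at 85.3 and 103 CPM in wild type, which overlapped. Diablo, whose protein releases caspases from XIAP, was at 70.7 and 65.2 CPM in knockout, against 51.8 and 63.9 CPM in wild type (log2 fold change 0.23). Aven, an inhibitor that binds Apaf1, was at 68.0 and 51.7 CPM in knockout, against 41.6 and 45.8 CPM in wild type (log2 fold change 0.43, SE 0.23, limma adjusted p = 0.999); leaving out knockout replicate 1 gave 0.24. Naip5 and Naip6, sensors of bacterial flagellin in mice, had log2 fold changes of -0.39 and 0.53; they are close copies, Naip6 had fractional read estimates in all 4 libraries, and their separate values are uncertain. The value of Naip6 also moved with single libraries, to 1.01 without knockout replicate 1, 0.05 without knockout replicate 2, 0.88 without wild-type replicate 1 and 0.18 without wild-type replicate 2. That of Naip5 was -0.25 without wild-type replicate 2.

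Genes of the execution phase had all 10 members tested, 7 above and 3 below 0, with a median of 0.10, which turned to -0.03 without knockout replicate 1 and was 0.18 without knockout replicate 2. Parp1, a DNA repair enzyme that executioner caspases cleave, was at 167 and 169 CPM in knockout, against 145 and 136 CPM in wild type (log2 fold change 0.26). Acin1, a caspase substrate tied to chromatin condensation, was at 209.5 and 245 CPM in knockout, against 302 and 259.6 CPM in wild type (log2 fold change -0.30, and -0.19 without either knockout replicate 1 or wild-type replicate 1). Panx1, a channel opened by caspase cleavage, had a log2 fold change of 0.18 with overlap, and turned to -0.01 without knockout replicate 1 and to -0.05 without wild-type replicate 2. None of these passed the test (limma adjusted p = 0.999 for each).

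Of the necroptosis genes, Ripk3 and Zbp1 were tested and both were below 0, with a median of -0.45, which ran from -0.71 without knockout replicate 1 to -0.20 without knockout replicate 2. Ripk3, the kinase that caspase-8 keeps in check, was at 34.3 and 21.2 CPM in knockout and at 31.7 and 43.3 CPM in wild type (log2 fold change -0.44, and -0.11 without knockout replicate 2), which overlapped. Its values stood in the same order over the libraries as the myeloid marker sums given above, as did those of other list genes. Lyz2, the largest part of those sums, did not stand in that order, and neither did Csf1r, Adgre1 or Itgam. The share of all tested genes in the order of the sums was not counted, and the part of myeloid cells in the Ripk3 values was not tested. Zbp1, a sensor of Z-form nucleic acids, was at 33.1 and 25.8 CPM in knockout, against 35.5 and 46.2 CPM in wild type (log2 fold change -0.46); leaving out wild-type replicate 2 gave -0.27. Mlkl, which ruptures the membrane in necroptosis, was below the filter at 1.27 to 2.76 CPM.

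The non-canonical NF-kB genes, downstream of Birc2 and Birc3, had 5 of 6 members tested, 3 above and 2 below 0, with a median of 0.06. Their genotypes overlapped for all 5, and genotypes that do not overlap made up 30.8% of all tested genes. The members with the smallest p were Traf3, which bridges cIAPs to the kinase NIK (log2 fold change -0.14), the kinase gene Chuk (0.10) and the subunit gene Relb (0.08). Without knockout replicate 1, Traf3 was at 0.06 and Relb at -0.05, and without wild-type replicate 1 Chuk was at 0.02. The median of this list was -0.09 without knockout replicate 2 and -0.03 without wild-type replicate 2.

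**Figure D5:**
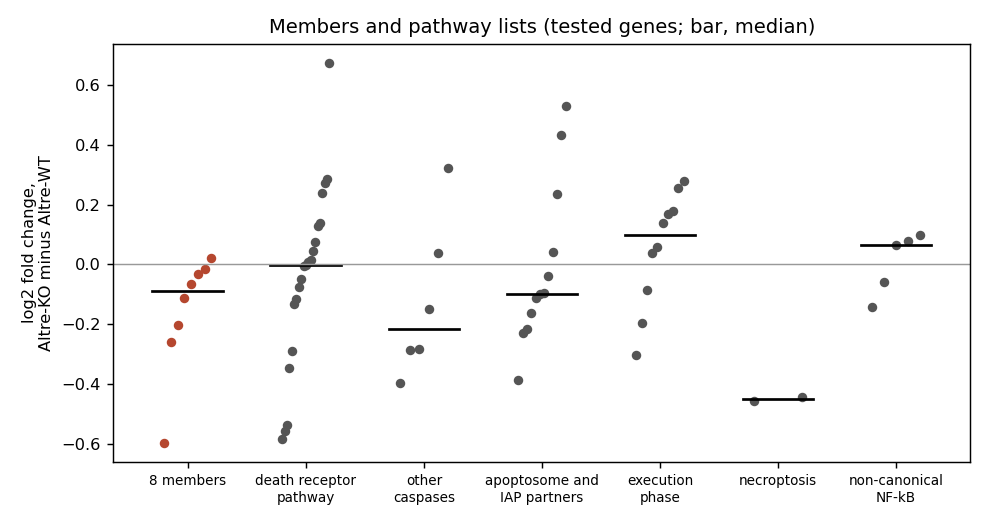
Log2 fold change, Altre-KO minus Altre-WT on the log2(CPM + 1) scale, of every tested gene among the 8 members and in each of the 6 pathway lists (points), with the median of each as a bar. The points lie on both sides of 0 in each list but necroptosis, which has 2 tested genes, and the highest is Tnfrsf25 at 0.67.

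For each member, the gene with the most similar profile was taken from 9722 tested genes, by the root mean square distance of log2(CPM + 1) values centred on their mean over the 4 libraries. The nearest to Fas was Polr2d, a subunit of RNA polymerase II, at 20.2 and 17.8 CPM in knockout and at 23.5 and 22.3 CPM in wild type (distance 0.011). The nearest to Casp9 was Pdcd10, at 40.1 and 22.9 CPM in knockout and at 44.8 and 46.2 CPM in wild type (distance 0.030). Casp8 was nearest to Cdk13 (0.0045), Cflar to Stxbp2 (0.0073), Xiap to Dnaaf5 (0.0096), Birc2 to Exosc10 (0.0071), Birc3 to Sf3b3 (0.0083) and Fadd to Npc1 (0.025). With 4 libraries such profiles are common: 237 genes lay within 0.05 of Birc3 and 207 within 0.05 of Casp8, against 2 for Casp9.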

How the data were processed

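RNA was taken from liver Tregs with a micro-scale column kit and made into libraries with a SMARTER mRNA kit, per the labels' protocols. The tools DESeq2, STAR and cutadapt and the build mm10 are named in the submitters' processing notes, which do not state roles, a counter or an annotation. The authors deposited RPM values, reads scaled to a common total with 0.0001 added, as read from the values, and CPM values, scaled over listed genes, per the file headers. The authors also deposited mean CPM, the log2 of their ratio, a p-value and an adjusted p-value from a test that is not named.

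The step of the RPM values gave estimated reads. Between 92.9% and 93.8% of values were whole within 0.02, so the main test was not one on counts. Limma-voom on estimated reads was run as an alternative only. Libraries of the same genotype were not copies of each other: a chi-square test between them gave 9.58 per degree of freedom in knockout and 3.37 in wild type. Libraries of different genotypes were not compared in this way. Genes with 10 estimated reads at the median depth (4.22 CPM) in at least 2 libraries were tested with limma 3.58.1 in R 4.3.3. The fit had a mean-variance trend and genotype as the only term. A run on simulated data asked only that most large changes and few unchanged genes be called. That check does not bear on changes as small as those of the members. The limma intervals draw on 20.8 prior degrees of freedom from all tested genes. Fold changes on the log2(CPM + 1) scale understate those of low genes. Members and lists were chosen with earlier results of these data known. The text names all members, the 3 genes of smallest p in each list and the nearest profile of each member. Some of the list genes that this rule takes are not reported here. One list gene, Septin4, was not matched by symbol or synonym. Copies of the members' transcripts were looked for with blastn 2.17.0 (at least 99% identity over 100 bases). Figures used matplotlib 3.10.9. Alternatives covered the test, scaling, filter, pseudocount, threshold, replicate block, gene length and each library left out.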

Additional observations from a re-analysis of the deposited data

How the results depend on the processing

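None of the members or pathway list genes passed the threshold under any alternative run. Over all tested genes, 4 passed in the main analysis, 2 with a pseudocount of 0.1 and between 6 and 16 with a library left out (14 without knockout replicate 2 and 16 without wild-type replicate 2). With the replicate number as a block, 6 genes passed, 0 of them members or list genes. Same-numbered libraries did not deviate together (r = -0.01 across 10486 genes). With 2 libraries per genotype, that cannot tell whether same-numbered libraries share anything beyond the number.

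The direction of Fas, Casp9 and Birc2 held under each alternative, but not every alternative could turn it. As their genotypes did not overlap, leaving out a library or changing the pseudocount cannot turn the sign. The filters and the replicate block left the fold changes as they were. Another scaling could have turned the direction and did not. The log2 fold change of Casp8, near 0, turned to 0.015 with median-of-ratios size factors and to 0.00033 with totals leaving out Rn45s, Rpph1 and Rmrp. Leaving out a library gave -0.338 to 0.273 for Fadd, -0.0477 to 0.0176 for Casp8, -0.179 to 0.0464 for Cflar, -0.281 to 0.0561 for Xiap and -0.00644 to 0.0493 for Birc3. It gave -0.0515 to 0.407 for Panx1, -0.347 to 0.0641 for Traf3 and -0.0464 to 0.201 for Relb. The log2 difference of the ratio Cflar over Casp8 then ran from -0.197 to 0.0945 and that of Fadd over Fas from -0.0489 to 0.516. With the longest transcript as the length, mean levels rose by more than their SD over libraries for all members but Fadd, for example to 98.7 CPM per kb for Casp8. With 1 library left in an arm, that library is assumed to vary like the other genotype.

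Depth limits the low members most: Casp9 and Fadd rested on 32 to 77 estimated reads per library, and Casp8 and Cflar on 479 to 867.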
